A study of Mus musculus with 2 samples.

Results

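The receptors and ligands of the tumour necrosis factor (TNF) family that costimulate T cells or mark them for death were compared between cytotoxic T cells, which carry CD8, and helper T cells, which carry CD4. The set holds 10 genes, chosen by name with earlier results of these data known. Its receptor genes are Tnfrsf4 (OX40), Tnfrsf9 (4-1BB), Cd27, Tnfrsf14 (HVEM), Tnfrsf1b (TNF receptor 2) and Fas. Its ligand genes are Cd40lg, Fasl, Tnf and Tnfsf8 (CD30 ligand). The genes were found through the transcript accession of each probe. All 10 were on the array, among 17176 named genes, with 13 probes on 49 spots. The groups were CD8+ cytotoxic T cells and CD4+ helper T cells, both labelled as wild-type splenocytes of strain C57B6 isolated by sorting, with no treatment given. Each was hybridised to 1 one-colour Agilent array, and both arrays lay on 1 slide. The labels give neither the age and number of the mice nor the markers of the sort. With 1 array per cell type the comparison has no p-value, and all errors below are technical.

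TNF family ligands are trimeric membrane or secreted proteins. Their receptors pass the signal on through TRAF adaptors to NF-kB or, as Fas does with its death domain, through FADD to caspases. On T cells, CD27 and HVEM are present before stimulation, while OX40 and 4-1BB are known as receptors that appear after T cell receptor signals and prolong survival. CD40 ligand is the classic helper signal to B cells and dendritic cells, Fas ligand kills Fas-bearing cells, and OX40, GITR and TNF receptor 2 are also known on regulatory T cells.

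The largest differences were those of Fasl, Tnfrsf4 and Cd40lg, all lower in CD8+ cells, by 10.4-fold, 6.45-fold and at least 5.39-fold. Tnfrsf9 followed at 2.06-fold lower. The other 6 members, Cd27, Tnfrsf14, Tnfrsf1b, Fas, Tnf and Tnfsf8, lay within 2-fold. Of these, Cd27 and Tnfsf8 had the higher scaled level in CD8+ cells, Tnfsf8 by less than the technical error of a single spot. Thus 4 of 10 members were at least 2-fold lower in CD8+ cells, as were 4.66% of the 13062 genes measured on at least 1 array, and 0 of 10 were at least 2-fold higher, against 2.24% of all genes (6.9% in either direction). At least 4-fold lower were 3 of 10 members and 1.1% of all genes. By any size, 8 of 10 members were lower in CD8+ cells and 2 of 10 higher, where 47.7% of all genes were lower and 50.6% higher. The median log2 difference of the members was -0.59, beside 0.00 for all genes. Differences are the CD8+ array minus the CD4+ array of the log2 processed signal after each array's 75th percentile was subtracted, so a negative value is a lower level in CD8+ cells. In sorted bulk RNA, fewer cells that express a gene and less RNA per cell cannot be told apart.

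To set the members' promoters beside these differences, the 250 bases before the annotated start are shown for 2 groups of members. The 4 members with an entry that were lowest in CD8+ cells are Fasl, Tnfrsf4, Tnfrsf9 (the downstream start of its pair) and Tnf. The 2 members with a positive difference are Cd27 and Tnfsf8, and that of Tnfsf8 was within the technical error of a single spot. The sequences come from RefSeq on build GRCm38.p6, read 5′ to 3′ on the gene's strand, and capitals mark matches to the motifs searched.
Fasl, chr1:161788496-161788745, minus strand: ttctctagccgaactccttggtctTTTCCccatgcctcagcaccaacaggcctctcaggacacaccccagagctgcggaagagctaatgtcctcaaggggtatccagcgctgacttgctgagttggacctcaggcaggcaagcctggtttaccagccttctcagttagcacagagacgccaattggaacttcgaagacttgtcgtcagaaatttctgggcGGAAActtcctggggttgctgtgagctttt
Tnfrsf4, chr4:156013445-156013694, plus strand: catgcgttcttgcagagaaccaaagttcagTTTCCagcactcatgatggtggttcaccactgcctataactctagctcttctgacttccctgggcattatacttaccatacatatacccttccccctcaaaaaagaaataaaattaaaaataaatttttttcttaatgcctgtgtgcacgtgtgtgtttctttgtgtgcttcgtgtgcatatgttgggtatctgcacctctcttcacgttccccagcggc
Tnfrsf9, chr4:150927749-150927998, plus strand: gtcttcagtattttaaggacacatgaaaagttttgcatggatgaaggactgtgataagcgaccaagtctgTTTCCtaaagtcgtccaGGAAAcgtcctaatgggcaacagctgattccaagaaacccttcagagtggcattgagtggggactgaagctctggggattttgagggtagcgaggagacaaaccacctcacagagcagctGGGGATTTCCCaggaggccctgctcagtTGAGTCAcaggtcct
Tnf, chr17:35202008-35202257, minus strand: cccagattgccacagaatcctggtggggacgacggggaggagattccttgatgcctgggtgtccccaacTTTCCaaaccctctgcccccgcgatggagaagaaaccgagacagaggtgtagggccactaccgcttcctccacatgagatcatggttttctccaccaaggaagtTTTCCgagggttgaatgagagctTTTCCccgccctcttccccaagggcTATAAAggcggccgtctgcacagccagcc
Cd27, chr6:125237028-125237277, minus strand: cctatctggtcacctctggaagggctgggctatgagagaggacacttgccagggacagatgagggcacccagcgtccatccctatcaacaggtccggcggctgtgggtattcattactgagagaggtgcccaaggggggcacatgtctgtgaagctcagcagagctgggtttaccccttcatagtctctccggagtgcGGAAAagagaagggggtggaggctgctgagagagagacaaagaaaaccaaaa
Tnfsf8, chr4:63861285-63861534, minus strand: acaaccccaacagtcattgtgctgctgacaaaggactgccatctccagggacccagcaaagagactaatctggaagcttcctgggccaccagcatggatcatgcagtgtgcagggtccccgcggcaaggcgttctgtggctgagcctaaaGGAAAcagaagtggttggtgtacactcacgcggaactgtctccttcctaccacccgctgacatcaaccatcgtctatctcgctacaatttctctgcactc

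The motifs were the NFAT core GGAAA, the AP-1 site TGANTCA, the RUNX site TGTGGT, the TATA box TATAAA and the kappa B consensus, each on both strands, where NFAT, AP-1 and NF-kB carry activation signals and RUNX factors take part in the choice of the CD8 lineage. RefSeq held 10 promoters for 9 of the members, with a pair for Tnfrsf9 and no entry matched to Cd40lg. GGAAA was in 9 of the 10 promoters and in 55.6% of 32851 promoters of all genes, in members beyond 2-fold and in members within it. The promoter of Tnfrsf1b was the only member promoter without it. TGANTCA was found in the promoters of Fas and Tnfrsf9, 2 of 10, against 6.75% of all promoters. The kappa B consensus was met only by the Tnfrsf9 promoter shown, at 2 overlapping positions that also overlap a GGAAA core on the other strand, and by 3.9% of all promoters. TATAAA was found in that of Tnf alone (12.4% of all), and TGTGGT in 0 of 10 (14% of all). These matches are letters in a window and were not set against binding data.

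Among the receptors, Tnfrsf4 differed most. OX40, its product, binds OX40 ligand on antigen-presenting cells and sustains activated T cells. Its single probe had a processed signal of 1170 in CD8+ cells and 8531 in CD4+ cells, a log2 difference of -2.69 with an error of 0.20 from the scanner software's own spot error. The signal was well above background on both arrays, so the gene was measured in the CD8+ cells too, at a lower level. Under the 9 alternative settings its difference stayed between -2.73 and -2.55.

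Tnfrsf9 encodes 4-1BB, a receptor used to costimulate cytotoxic T cells. Its brighter probe had a signal of 294 in CD8+ cells and 686 in CD4+ cells (log2 difference -1.05), and its dimmer probe 46.3 in CD8+ cells and 93.4 in CD4+ cells (-0.83). Both probes were lower in CD8+ cells, and only the brighter one passed 2-fold. With the mean over probes the difference was -0.94, with normexp background correction -0.85, with the authors' series values -0.89 and with median scaling -0.90, so its place among the members at least 2-fold apart depends on these choices.

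Cd27 encodes a receptor of naive and memory T cells that binds CD70. Its signal was 11907 in CD8+ cells and 10609 in CD4+ cells, a log2 difference of 0.34, below 2-fold. It was larger than the single-spot error of 0.20 in this setting and smaller under normexp and under the series values, at 0.18 in each. Tnfrsf14 encodes HVEM, which binds LIGHT as well as the inhibitory receptor BTLA. It had a signal of 303 in CD8+ cells and 405 in CD4+ cells, and its difference of -0.24 was close to the single-spot error of 0.20.

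Tnfrsf1b and Fas were measured with 10 spots of a probe each, which gives the spread of the hybridisation itself. For Tnfrsf1b, the TNF receptor without a death domain, the spots ran from 980 over a median of 1065 to 1148 in CD8+ cells, and from 1360 over 1437 to 1497 in CD4+ cells. The ranges did not overlap, and the log2 difference was -0.25 ± 0.05 (SD over 10 spots). A dimmer second probe of the gene had 79.0 in CD8+ cells and 96.8 in CD4+ cells, a difference of -0.12. The differences of its probes lay closer together than the pooled SD of 0.23 between probes of a gene over 3972 genes.

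For Fas, the death receptor, the spots ran from 3627 over a median of 3841 to 4032 in CD8+ cells and from 5456 over 5733 to 6184 in CD4+ cells. The log2 difference was -0.41 ± 0.05 (SD over 10 spots), and every spot was lower in CD8+ cells, by 0.29 to 0.48 on the log2 scale. The difference exceeds the spread between spots and is below 2-fold.

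**Figure D1:**
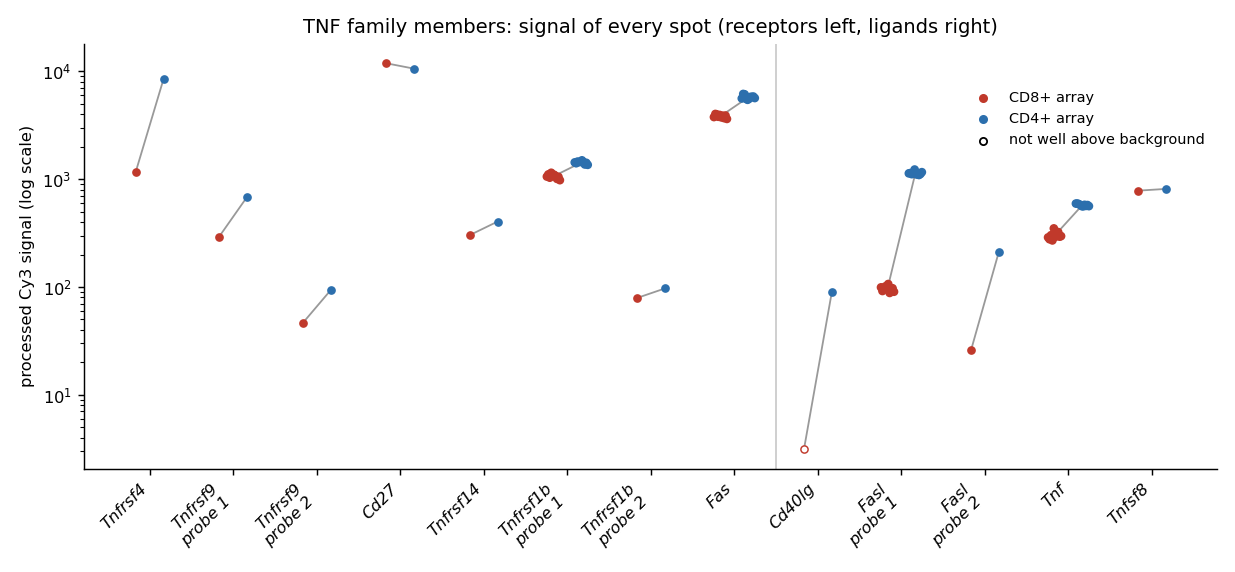
Processed Cy3 signal (log scale) of every spot of the 10 members, the 6 receptor genes left and the 4 ligand genes right, with the CD8+ array left of the CD4+ array in each probe and a line joining the geometric means. The steepest lines are those of Tnfrsf4, Cd40lg and Fasl, and the open point marks Cd40lg, not well above background on the CD8+ array. Signals are before scaling, and levels of different probes are not comparable.

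Among the ligands, Fasl showed the largest difference of all 10 members. Fas ligand is one of the means by which cytotoxic cells kill, next to perforin and granzymes. The 10 spots of its brighter probe ran from 88.1 over a median of 97.1 to 107 in CD8+ cells, and from 1094 over 1126 to 1230 in CD4+ cells. No spot of the CD8+ array came near those of the CD4+ array, and the log2 difference was -3.38 ± 0.09 (SD over 10 spots). A second probe, on 1 spot, had 25.9 in CD8+ cells and 212 in CD4+ cells, a difference of -2.86 (7.25-fold). Ordered from the lowest difference upward, Fasl stood at place 21 of 13062 genes. Its size was smaller under normexp, at -2.69 (6.47-fold), under the authors' series values, at -2.88 (7.37-fold), and with the mean over probes, at -3.12.

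Cd40lg was detected in CD4+ cells alone. Its single probe had a signal of 3.12 in CD8+ cells, where the software's error was 3.11 and the spot was not well above background, and of 89.6 in CD4+ cells. The lowest signal among probes well above background on the CD8+ array was 14.7, and set against that floor the gene was at least 5.39-fold lower in CD8+ cells (log2 difference at most -2.43). With normexp the bound was at least 1.85-fold and with the series values at least 2.35-fold, so the bound of 2-fold was lost with normexp.

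Tnf encodes the founding cytokine of the family. Its 10 spots ran from 270 over a median of 295 to 349.6 in CD8+ cells and from 559.6 over 577 to 595 in CD4+ cells. The ranges did not overlap, and the log2 difference was -0.77 ± 0.13 (SD over 10 spots), or 1.70-fold lower in CD8+ cells. Tnfsf8, the ligand of CD30, had a signal of 783 in CD8+ cells and 813 in CD4+ cells. Its scaled difference was 0.12, less than the single-spot error of 0.20, so the arrays did not separate for this gene beyond the technical error.

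**Figure D2:**
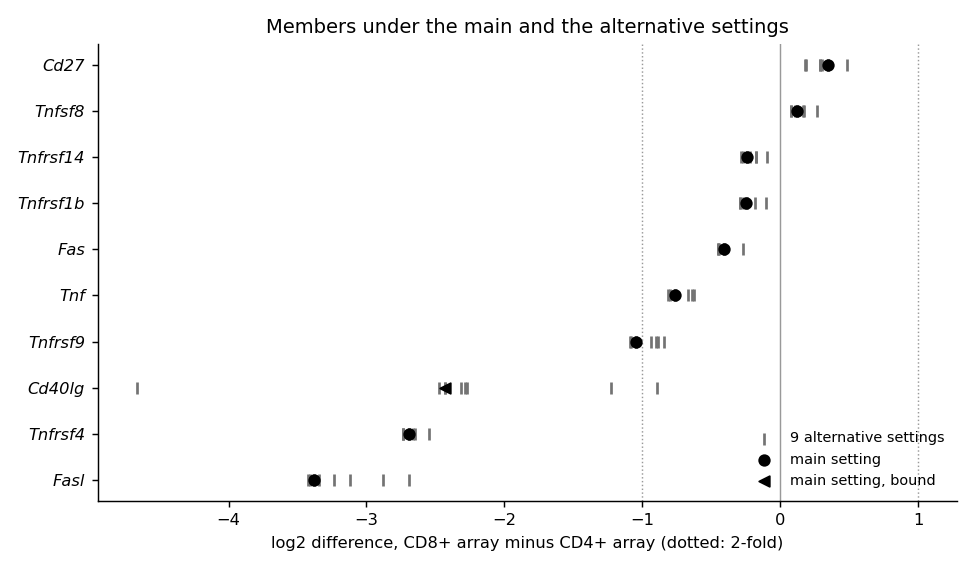
Log2 difference of each member, CD8+ array minus CD4+ array, in the main setting (filled symbols, a triangle for the bound of Cd40lg) and under 9 alternative settings (ticks). Fasl and Tnfrsf4 lay beyond 2-fold in every setting drawn, Tnfrsf9 fell on either side of 2-fold, and the tick at -4.67 is Cd40lg with its measured value in place of the bound.

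The rest of the family was described from lists of the other receptors and ligands. Of 19 other receptors well above background on at least 1 array, 3 were at least 2-fold lower in CD8+ cells, beside 4.66% of all genes. By that size 0 were higher, which is close to the 2.24% of all genes. The median of these receptors was -0.19, with Tnfrsf8 and Tnfrsf23, which had no bound, counted at 0. It was 0 under normexp, which is the value set for these genes, and -0.05 with median scaling. Without a filter on dim probes, where measured values are used, it was -0.43 over 20 receptors. Tnfrsf25 encodes DR3, a death domain receptor with a costimulatory role in T cells. It had a signal of 8688 in CD8+ cells and 31609 in CD4+ cells (-1.69), and its second probe gave -1.48. Tnfrsf19, known as TROY, had 49.8 in CD8+ cells and 180 in CD4+ cells (-1.68).

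Tnfrsf17 encodes BCMA, a receptor of plasma cells. It was not well above background on the CD8+ array (8.99) and had 63.7 in CD4+ cells, at least 3.83-fold lower in CD8+ cells. Its bound fell short of 2-fold under normexp (-0.57) and under the series values (-0.83). Tnfrsf18 encodes GITR, a costimulatory receptor abundant on regulatory T cells, and it stood just short of 2-fold, with 16138 in CD8+ cells and 33306 in CD4+ cells (-0.87). Of the 6 other receptors with a higher level in CD8+ cells, the largest differences were those of Tnfrsf13c, the BAFF receptor of B cells, with 1192 in CD8+ cells and 846 in CD4+ cells (0.67), and of Relt, with 339 in CD8+ cells and 258 in CD4+ cells (0.57).

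Of 10 other ligands well above background on at least 1 array, 3 were at least 2-fold lower in CD8+ cells, beside 4.66% of all genes. By that size 0 were higher, which is close to the 2.24% of all genes. The median of these ligands was -0.48, with Ltb, whose spot was saturated on both arrays, counted in it. Under the alternatives it ran from -0.52 with scaling over detected probes to -0.16 under normexp, and was -0.28 under the series values. Tnfsf11 encodes RANKL, which activated T cells and bone cells make. It was detected in CD4+ cells alone, with 10.4 in CD8+ cells and 186 in CD4+ cells, and was at least 11.2-fold lower in CD8+ cells. Its second probe had 3.75 in CD8+ cells and 162 in CD4+ cells. With normexp the difference was still at most -1.43.

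Tnfsf4, the ligand of OX40, had 36.4 in CD8+ cells and 87.2 in CD4+ cells (-1.08). Tnfsf13b encodes BAFF, a B cell survival factor of myeloid cells, and was detected in CD4+ cells alone, at least 2.14-fold lower in CD8+ cells. Neither passed 2-fold with normexp (-0.30 and -0.12) or with the series values (-0.52 and -0.36). Lta, lymphotoxin alpha, had 650.1 ± 29.3 in CD8+ cells and 1364 ± 72.5 in CD4+ cells (SD over 10 spots), a difference of -0.89 ± 0.06. Tnfsf9, the ligand of 4-1BB, differed by -0.76, and by only -0.38 under normexp and -0.45 under the series values.

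**Figure D3:**
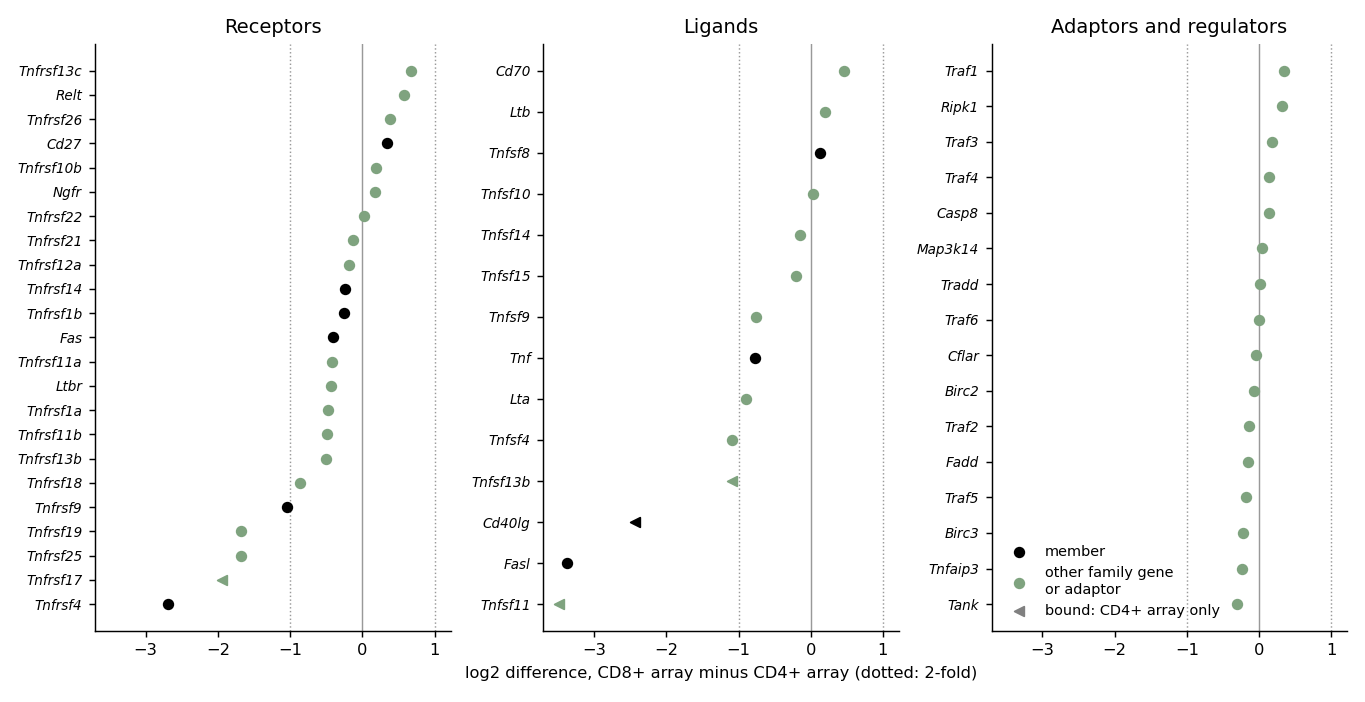
Log2 difference, CD8+ array minus CD4+ array, of the receptors, the ligands and the adaptors and regulators of the TNF family, with the 10 members in black and dotted lines at 2-fold. Triangles are bounds of genes above background on the CD4+ array alone. Points beyond 2-fold lie on the side of lower levels in CD8+ cells among receptors and ligands, and no adaptor lies beyond 2-fold. Of all genes, 4.66% were at least 2-fold lower in CD8+ cells and 2.24% at least 2-fold higher. Tnfrsf8 and Tnfrsf23, with no bound, are not drawn, and the size for Ltb is not known because its spot was saturated on both arrays.

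Of 17 pairs of a receptor and a ligand, those described here were chosen after their values were seen. The OX40 pair was lower in CD8+ cells on both sides, at -2.69 for the receptor and -1.08 for the ligand. The 4-1BB pair had -1.05 for the receptor and -0.76 for the ligand. The ligand's probe was dim, with 44.4 in CD8+ cells and 84.7 in CD4+ cells. For CD27 and its ligand gene Cd70 both sides were higher in CD8+ cells, at 0.34 and 0.47, but the Cd70 probe was dim, with 18.0 in CD8+ cells and 14.7 in CD4+ cells and a single-spot error of 0.41 on its difference. Fas and Fasl were unequal, at -0.41 and -3.38. For the RANK pair the receptor gene Tnfrsf11a had -0.42 and its ligand gene Tnfsf11 at most -3.48. For BAFF the sides went opposite ways, with 0.67 for its receptor gene Tnfrsf13c and at most -1.10 for Tnfsf13b. Tnfrsf25 had -1.69 and its ligand gene Tnfsf15 -0.20. The pair of HVEM and LIGHT (Tnfsf14) was close to 0 on both sides, at -0.24 and -0.15. Tnfrsf8, the receptor of the CD30 ligand, had 9.09 in CD8+ cells, not well above background, and 15.4 in CD4+ cells, too near the detection limit for a bound. Cd40 had no named probe.

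For the adaptors and regulators downstream of these receptors, 16 genes were measured on both arrays, the median was -0.02, and the range ran from -0.31 to 0.34. None was 2-fold apart, as were 6.9% of all genes, so a count of 0 among 16 genes is close to the share of all genes. Traf1, an adaptor of the OX40 and 4-1BB receptors, had 0.34, the kinase gene Ripk1 0.32 and Tank, a TRAF-binding regulator, -0.31. Fadd and Casp8, which act downstream of Fas, had -0.15 and 0.13.

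The labels were checked by the genes that name the cells. The log2 difference was 6.72 for Cd8a and -2.04 for Cd4. The T cell receptor complex genes Cd3d, Cd3e and Cd3g were well above background on both arrays. Cd3e had a difference of 0.50 and Cd3g of 0.08, less than the single-spot error of 0.20, while the spot of Cd3d was saturated on the CD4+ array, so its direction is not known. Naive T cell markers had a median of 0.13 over 6 genes, among them Ccr7 at 0.34, and 0 of 6 lay beyond 2-fold, beside 6.9% of all genes.

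Markers of regulatory T cells, which carry CD4, moved in the same direction as Tnfrsf4, Tnfrsf9, Fasl and Cd40lg. Of 7 with a named probe 6 were at least 2-fold lower in CD8+ cells, beside 4.66% of all genes, with a median of -2.55. Their summed signal was 1599 in CD8+ cells and 10571 in CD4+ cells, of which Gpr83 alone gave 1260 in CD8+ cells and 8332 in CD4+ cells. Such sums run over different probes and follow the brightest of them. Foxp3, Il2ra and Nrp1 were not well above background on the CD8+ array, where Foxp3 was at least 21.3-fold lower, and Ctla4 was 15.6-fold lower. The count was 5 of 7 under normexp and under the series values. The part of these cells in the members' differences was not tested.

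Dendritic and myeloid markers lay the same way, with 5 of 9 at least 2-fold lower in CD8+ cells, beside 4.66% of all genes. Their median was -1.31. The same share of all genes stands beside the NK and plasma cell counts below. Their summed signal was 11079 in CD8+ cells and 17399 in CD4+ cells, and most of it came from Adgre1 and Csf1r, which differed by -0.47 and 0.05. The lectin genes Cd209a and Siglech were 9.25-fold and 6.28-fold lower, and the count was 4 of 9 under normexp and under the series values. Of 5 NK markers Klre1 was not well above background on either array, and of the other 4, 3 were at least 2-fold lower, with a median of -1.65, led by Klrb1c at -2.34 and Ncr1 at -2.14. Ncr1 had -0.69 under normexp and -0.93 under the series values, which leaves 2 of 4. The summed signal was 4156 in CD8+ cells and 10745 in CD4+ cells, of which Tyrobp, which myeloid cells also express, gave 3997 in CD8+ cells and 10166 in CD4+ cells. NK cells are known to make Fas ligand, and the part of these cells was not tested either. Of 5 plasma cell markers 2 were at least 2-fold lower, Prdm1 at -2.28 and Irf4 at -1.63, which activated T cells are also known to express. Irf4 had -0.90 under normexp, which leaves 1 of 5. The summed signal of the list was 1449 in CD8+ cells and 2741 in CD4+ cells.

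The medians of the remaining lists, of B cells and platelets, lay on the other side of 0. All 9 B cell markers were higher in CD8+ cells, beside 50.6% of all genes. None lay beyond 2-fold, which is close to the share of 6.9% of all genes. Their median was 0.54, with Cd79b at 0.84, and their summed signal was 13784 in CD8+ cells and 10094 in CD4+ cells. Of the 9 markers, Ms4a1 (0.12) turned to -0.12 under normexp and under the series values, and Cr2 (0.33) to -0.01 with the mean over probes. Thus 8 of 9 were higher in each of these settings. The 4 platelet markers had a median of 0.68 and a summed signal of 319 in CD8+ cells and 240 in CD4+ cells, with Itga2b, detected in CD8+ cells alone, at 1.21 or more and Pf4 at 0.76. The bound of Itga2b was 0.34 under normexp and 0.57 under the series values. Gp1bb was lower in CD8+ cells, with 38.9 in CD8+ cells and 50.3 in CD4+ cells (-0.20). The medians of these lists, like those of the T cell and naive T cell lists, had the sign of Cd27 and Tnfsf8, of which Tnfsf8 lay within the technical error. They had the opposite sign to the 8 members that were lower. The part of B cells and platelets in the members' differences was not tested.

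**Figure D4:**
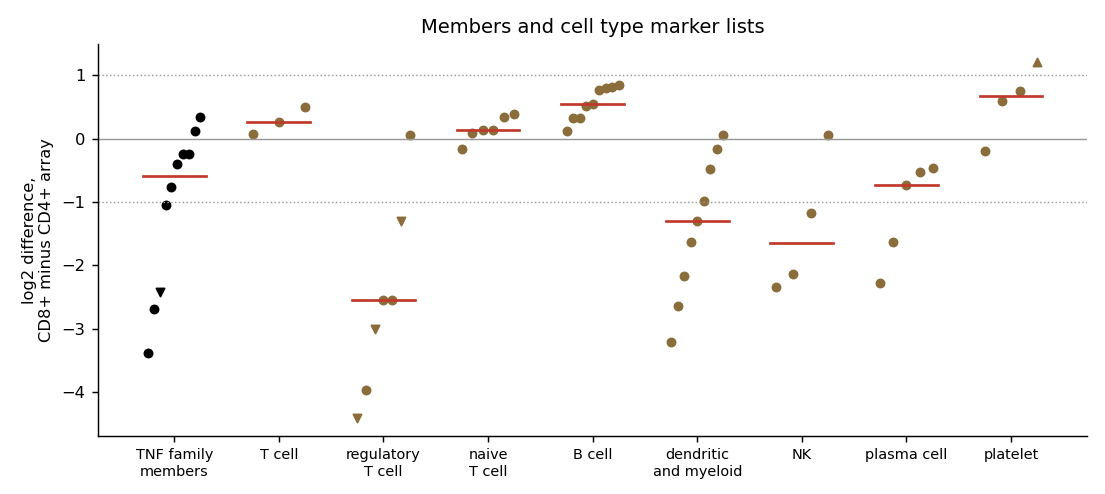
Log2 difference, CD8+ array minus CD4+ array, of the 10 members and of 8 marker lists, with Cd4 and Cd8a left out, bounds as triangles and each group's median as a red line. Cd3d, saturated on the CD4+ array, has no known direction. The medians of the members and of the regulatory T cell, dendritic and myeloid, NK and plasma cell lists lie below 0. Those of the T cell, naive T cell, B cell and platelet lists lie above it.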

How the data were processed

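Total RNA of the sorted cells was labelled with Cy3 and hybridised to 1 array per cell type, per the labels' protocols. The deposited scanner files give spot intensity on a linear scale, made with Feature Extraction 10.1.1.1 per the file headers, while the submitters' processing notes name version 9.1. The processed intensity is background-subtracted and detrended, with no scaling between arrays. The authors' series table equals the median spot intensity exactly (45018 of 45018 spots, both arrays), and its median is 73 for the CD8+ and 80 for the CD4+ array.

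From these files, log2 processed signals were scaled by subtracting the 75th percentile of the array's 43379 non-control spots (449.9 on the CD8+ and 508 on the CD4+ array). Well above background were 58.6% of spots on the CD8+ and 63.1% on the CD4+ array. Spots marked as outliers were left out (92 on the CD8+ and 99 on the CD4+ array) and saturated ones kept; no member had either. Spots of a probe were averaged, and a gene took its brightest probe above background, first one above background on both arrays. Where no probe was above background on an array, the difference was a bound against the higher of the lowest signal well above background there and the probe's own. Of 41174 probes 24844 were named through RefSeq accessions (assembly GRCm38.p6, used for names, while the headers name another build), and 16330 were not. Tnfrsf8 and Tnfrsf23 had no bound and were counted at 0. The error of a single spot is the software's own, and the pooled SD of the difference was 0.16 between spots of a probe (158 probes) and 0.23 between probes of a gene (3972 genes). The number of arrays limits the precision, and no p-value was computed.

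The genes named are the members, of each family list those at least 2-fold apart and the 3 largest differences among genes above background on both arrays, and the 2 largest of each marker list, of which a few values are not reported here. Fadd, Casp8, Cd70, Tnfrsf11a, Tnfsf14, Tnfrsf8, Cd3d, Cd3e and Cd3g are named for their role, and other genes were chosen after their values were seen. The members and lists were chosen with earlier results of these data known. Alternatives were normexp (offset 50, on the median signal because no mean signal column is present), median scaling, scaling over detected probes, quantile normalization, a loess fit with span 0.3, the series values, the mean over probes, outlier spots kept, no filter on dim probes and a 4-fold threshold. The computation was tested on simulated data. The software was limma 3.58.1 in R 4.3.3, with pandas 2.3.3 and numpy 2.4.6 in Python 3.11.15.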

Additional observations from a re-analysis of the deposited data

How the results depend on the processing

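Of 90 member differences under the 9 alternative settings, 84 moved by less than the SD of 0.23 between probes of a gene. All 10 members kept their direction in each setting. Some of the 84 could not move. No member had an outlier spot, the mean over probes can change only members with 2 probes, and leaving out the filter only Cd40lg. Median scaling and scaling over detected probes shift all members by the same amount. These counts therefore say little about how robust each member is. The 6 differences that moved further than the SD were of Fasl (-3.12 with the mean over probes, -2.69 under normexp, -2.88 under the series values) and of Cd40lg (-0.89 under normexp, -1.23 under the series values, -4.67 with its measured value in place of the bound). The count of members at least 2-fold lower in CD8+ cells was 2 with normexp, 3 with the mean over probes, median scaling, the series values or a 4-fold threshold, and 4 with the others; none was higher by that size in any. The other ligands at least 2-fold lower numbered 3 in the main setting and 2 with the loess fit. They numbered 1 with normexp, quantile normalization, median scaling, the series values and the 4-fold threshold. The other receptors numbered 3 in the main setting and 2 with normexp and with the series values. They numbered 4 without a filter on dim probes and 0 with the 4-fold threshold. The shift under median scaling took Tnfrsf9 from -1.05 to -0.90 and Tnfsf4 from -1.08 to -0.94, short of 2-fold. A higher threshold admits fewer genes. The cause of the other changes was not tested. Median scaling moved the median of all genes from 0.00 to 0.15 and that of the members from -0.59 to -0.45. Over all genes, 292 were at least 2-fold higher and 609 at least 2-fold lower in CD8+ cells, which became 397 and 487 with median scaling, 124 and 238 under normexp, 148 and 294 under the series values, 617 and 1281 without a filter on dim probes, and 63 and 144 at 4-fold. No paired analysis was possible because each cell type had 1 array.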

Other observations

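The members with 10 spots of a probe differed in how far those spots scattered. For Tnf the coefficient of variation of the processed signal was 7.65% on the CD8+ array and 2.27% on the CD4+ array. For Fasl it was 5.72% on the CD8+ array and 3.43% on the CD4+ array, and for Tnfrsf1b 4.64% and 2.86%, while for Fas, the brightest of the probes, it was 3.45% on the CD8+ array and 4.18% on the CD4+ array. Tnfrsf1a, the TNF receptor with a death domain, was also measured with 10 spots and differed by -0.47 ± 0.08 (SD over 10 spots), with 2561 ± 166 in CD8+ cells and 4016 ± 135 in CD4+ cells.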
